A study of Mus musculus with 2 samples.

Results

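Taste transduction is the signalling route by which receptor cells of the tongue, and the solitary chemosensory or tuft cells of other epithelia, answer to sweet, umami and bitter compounds. Its 10 components studied here were chosen by name, as the genes with these symbols among the 19937 genes that the array's annotation named through a probe set with a single symbol. They are the receptor gene Tas1r3, the G protein subunit genes Gnat3, Gnb3 and Gng13, the effector genes Plcb2, Itpr3 and Trpm5, the regulator genes Rgs13 and Rgs21, and the adaptor gene Sh2d7. The choice was made with the difference between the 2 arrays known, so every difference below is a description of these arrays and supports nothing by itself. Each of the 10 was measured by 1 probe set, and all 10 were analysed.

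The RNA came from medullary thymic epithelial cells (mTEC), the cells of the thymic medulla that display antigens of other tissues to developing T cells. The mice were of strain B6, were 6 weeks old and all carried floxed Hdac3 alleles. The group labelled WT was HDAC3fl/fl without Cre, and the group labelled HDAC3cKO was HDAC3fl/fl Foxn1-Cre, in which Cre is driven by Foxn1, a gene of both cortical and medullary thymic epithelium. HDAC3 is a histone deacetylase of the NCoR and SMRT corepressor complexes. The sort gate took cells positive for EpCAM, negative for CD45, and low for Ly51 and MHC class II. The cells taken from the HDAC3cKO thymus are described as residual, and about 30000 of them were obtained from pools of typically 10 to 30 mice, while how many mice gave the WT cells is not stated in the sources used here. Each genotype had 1 array, so no value has a replicate error, no test between genotypes was possible, and the number of arrays limits the precision. "Higher" and "lower" describe these 2 arrays only, and pairs of values are given with the array labelled WT first. With pooled RNA, fewer cells of a type and less RNA per cell cannot be told apart.

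Some facts of the whole array bear on every value. The Hdac3 probe set, a check of the labels, read 10.90 and 11.64 on the log2 scale, so it was not lower where the label says the gene was deleted. The sources used here do not say which exons are floxed, and a probe set that reads other exons checks nothing, so directions rest on the labels. Among 16 thymic epithelial markers, with a median difference of 0.07, Epcam was at 11.33 and 11.06, Krt5 at 12.93 and 13.33 and Krt8 at 13.73 and 13.96 (log2). Of the 16, 4 passed 2-fold downward, Fezf2, a transcription factor of mature mTEC, by -2.97, the claudin genes Cldn3 and Cldn4 by -1.39 and -1.16 and the basal keratin gene Krt14 by -1.36. The cortical genes Psmb11, of the thymoproteasome, and Prss16, a protease, were higher by 1.54 and 1.03. Enpep, which encodes Ly51, had intensities of 128 and 167. Ptprc, which encodes CD45, differed by -0.84 (9.63 and 8.79, log2) and the class II gene H2-Aa by 0.01 (13.30 and 13.31). Intensities of different probe sets are not on 1 scale of abundance. A place against the median named gene, a sum over a list or a distance between levels therefore describes signal on these arrays and not amounts of transcript.

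In the taste cascade, a receptor activates the G protein gustducin, whose beta and gamma subunits stimulate phospholipase C beta 2. The inositol trisphosphate that this enzyme makes opens the type 3 inositol trisphosphate receptor, and the released calcium opens the cation channel TRPM5, which depolarises the cell. Tuft cells, which depend on the transcription factor POU2F3, use the same cascade, and cells of this kind are known in the thymic medulla. RGS proteins end G protein signals by speeding GTP hydrolysis on the alpha subunit.

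Promoter sequence was examined because the 10 genes lie on 8 chromosomes and differed in the same direction. The RefSeq table of build GRCm38.p6 gave a promoter for 9 of the 10 genes, with 2 start sites for Gng13, and the 250 bases upstream of each start were searched on both strands. The motif was the octamer ATGCAAAT, the classic site of POU factors, together with its 7-base core ATGCAAA, which the octamer contains. The octamer was present in 2 of these 10 promoters, those of Rgs21 and Itpr3, and in 1.60% of 32851 promoters of the same length. Its 7-base core was found in the same 2 promoters and in 4.12% of all promoters. The following 4 sequences are the pair with a match, whose matched bases are in capitals, and those of Rgs13 and Trpm5, which had the largest differences in the group and no match. They are given 5′ to 3′ on the strand of the gene and end at the base before the annotated start.
Rgs21, chr1:144567668-144567917, minus strand: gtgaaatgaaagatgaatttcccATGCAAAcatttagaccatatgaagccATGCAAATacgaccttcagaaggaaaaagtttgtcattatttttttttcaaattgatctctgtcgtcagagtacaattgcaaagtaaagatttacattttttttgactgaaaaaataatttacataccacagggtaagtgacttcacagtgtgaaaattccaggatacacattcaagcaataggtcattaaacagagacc
Itpr3, chr17:27057054-27057303, plus strand: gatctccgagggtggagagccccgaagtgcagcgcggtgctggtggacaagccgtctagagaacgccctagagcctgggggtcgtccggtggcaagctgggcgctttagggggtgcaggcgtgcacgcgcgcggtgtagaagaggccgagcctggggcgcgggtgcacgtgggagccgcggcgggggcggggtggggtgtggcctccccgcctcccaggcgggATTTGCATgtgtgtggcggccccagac
Rgs13, chr1:144177373-144177622, minus strand: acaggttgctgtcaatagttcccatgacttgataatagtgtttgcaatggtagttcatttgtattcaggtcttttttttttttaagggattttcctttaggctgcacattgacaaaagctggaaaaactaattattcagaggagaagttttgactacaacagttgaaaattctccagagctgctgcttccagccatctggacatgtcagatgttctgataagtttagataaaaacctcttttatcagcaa
Trpm5, chr7:143094643-143094892, minus strand: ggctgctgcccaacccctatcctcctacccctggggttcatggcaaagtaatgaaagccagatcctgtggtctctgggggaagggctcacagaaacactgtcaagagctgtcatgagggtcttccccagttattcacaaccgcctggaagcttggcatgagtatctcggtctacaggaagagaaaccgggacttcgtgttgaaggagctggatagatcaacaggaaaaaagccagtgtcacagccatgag
The octamer of Rgs21 lay 200 to 193 bases upstream of the start with a further 7-base core at 227 to 221, whereas that of Itpr3 lay at 27 to 20 bases in the reverse direction. The pair therefore included the gene with the smallest difference of the 10, Itpr3, and 1 of those with the largest, Rgs21. The letters of a TATA box (TATAAA) were found in 1 of these 10 promoters, that of Sh2d7, at 27 to 22 bases upstream of the start. Anywhere in the 250 bases and on either strand, they were found in 12.4% of all promoters. Base composition also varied widely, from 32.8% G and C for Rgs21 to 72.0% for Itpr3, around a median of 52.4% over all promoters. A match describes letters in this window and is neither a site nor a cause.

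All 10 cascade genes were lower on the array labelled HDAC3cKO, by between 2.08-fold and 27.7-fold. Their median difference (log2 intensity on the array labelled HDAC3cKO minus that on the array labelled WT) was -3.84, or 14.3-fold, against a median of 0.01 over all 19937 named genes. Of all named genes 5.88% were at least 2-fold lower, and of those whose mean level was at or above the median of 8.03 the share was 6.75%. At 1.5-fold and 4-fold the shares of all named genes were 11.2% and 1.85%, and 2.97% were at least 2-fold higher. Each list count below has the 2-fold shares of 5.88% lower and 2.97% higher as its reference. Since the cascade genes were chosen on this contrast, nothing is read from their count of 10 against these shares. All 10 had a mean at or above that median, but 5 of them (Trpm5, Rgs13, Rgs21, Tas1r3 and Sh2d7) were below the median named gene, 7.96, on the array labelled HDAC3cKO, so these passed through the array labelled WT. Among all named genes ordered by difference from the lowest, 5 of the 10 stood within the first 12 and 7 within the first 100.

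**Figure D1:**
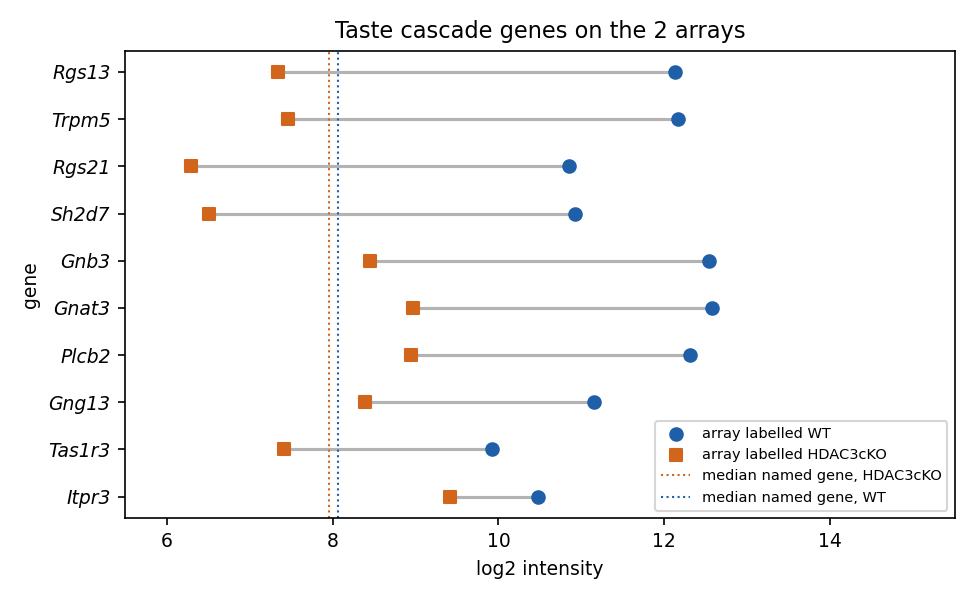
Log2 intensity (horizontal axis) of the 10 taste cascade genes (vertical axis, ordered by difference) on the array labelled WT (circles) and the array labelled HDAC3cKO (squares), 1 array each, with the median named gene of each array as a dotted line. Every square lies to the left of its circle, and 5 squares lie below the HDAC3cKO median of 7.96.

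Tas1r3 encodes the shared subunit of the sweet and umami receptors. It had intensities of 968 (WT) and 170 (HDAC3cKO), 5.70-fold lower or -2.51 on the log2 scale, and 17.6% of the WT intensity remained. Tas1r1, the partner that makes the umami receptor, was at a log2 intensity of 7.18 and 6.54, and Tas1r2, the partner that makes the sweet receptor, at 6.35 and 6.52. Both partners were thus below the median named gene on both arrays, and neither differed by 2-fold. Among 8 measured taste and nutrient receptors other than Tas1r3, 2 passed 2-fold downward and 1 upward, and the median difference was -0.27. The lower ones were Casr, the calcium-sensing receptor, at 3.24-fold (log2 10.46 and 8.76) and Sucnr1, the succinate receptor, at 2.04-fold (6.74 and 5.71). Cd36, a fatty acid transporter also linked to fat taste, was 2.37-fold higher.

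The 3 subunits of gustducin were all lower, by unequal amounts. Gnat3, the alpha subunit, had intensities of 6078 and 502, 12.1-fold apart (-3.60, log2). Gnb3, the beta subunit, had intensities of 5936 and 350, 17.0-fold apart (-4.08). Gng13, the gamma subunit, had intensities of 2279 and 335, 6.80-fold apart (-2.77). What remained on the array labelled HDAC3cKO was 8.27% of the WT intensity for Gnat3, 5.90% for Gnb3 and 14.7% for Gng13. With 1 array per genotype, whether these 3 differences are themselves distinct was not tested.

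Other G protein subunits did not share this size of difference. None of 14 measured alpha subunits other than Gnat3 differed by 2-fold, and their differences ran from -0.75 (Gna15, an alpha subunit of blood cells, chosen after its value was seen) to 0.78 (Gnat1). Gnat1 and Gnat2, the transducins of rods and cones and close relatives of Gnat3, differed by 0.78 and 0.23, and Gnai2, the widespread inhibitory subunit, by -0.33. Of the 4 other beta subunits, Gnb4 was 2.15-fold lower, while the widespread Gnb1 and Gnb2 differed by -0.15 and -0.26. Of 11 other gamma subunits, none was 2-fold lower and Gng11 was 2.10-fold higher, from a low level of 5.85 to 6.92. The medians were -0.02 for the alpha, -0.20 for the beta and -0.04 for the gamma subunits.

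Downstream of the G protein, the 3 effectors differed by very unequal amounts. Plcb2, the phospholipase, had intensities of 5072 and 494, 10.3-fold lower (-3.36), with 9.74% remaining. Trpm5, the cation channel, had intensities of 4565 and 176, 25.9-fold lower (-4.70), so that 3.86% of its WT intensity remained. Itpr3, the calcium release channel, had intensities of 1426 and 686, 2.08-fold lower (-1.06), and kept 48.1%. It had the smallest difference of the 10, and 5.44% of all named genes were as low or lower. With 64 added to both intensities before log2, its difference was -0.99, just short of 2-fold.

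The relatives of these effectors showed smaller differences with single exceptions. Among 9 other phospholipases C, Plcg2, an isoform of B cells and myeloid cells also found in tuft cells, was 4.36-fold lower (log2 10.45 and 8.32), Plcd4 was 2.01-fold higher, and the beta isoforms Plcb1, Plcb3 and Plcb4 differed by 0.57, -0.36 and 0.05. Among calcium release channels, Itpr2, a second inositol trisphosphate receptor, was at 11.03 and 10.19, a difference of -0.83, close to the -1.06 of Itpr3. All 4 measured relatives of Itpr3 were below 0, with a median of -0.58, and none was 2-fold lower. Trpm4, the channel most like TRPM5, differed by -0.23 (8.05 and 7.82). None of the 7 other TRPM channels was 2-fold lower, and Trpm3 was 8.68-fold higher, from 7.83 to 10.94.

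**Figure D2:**
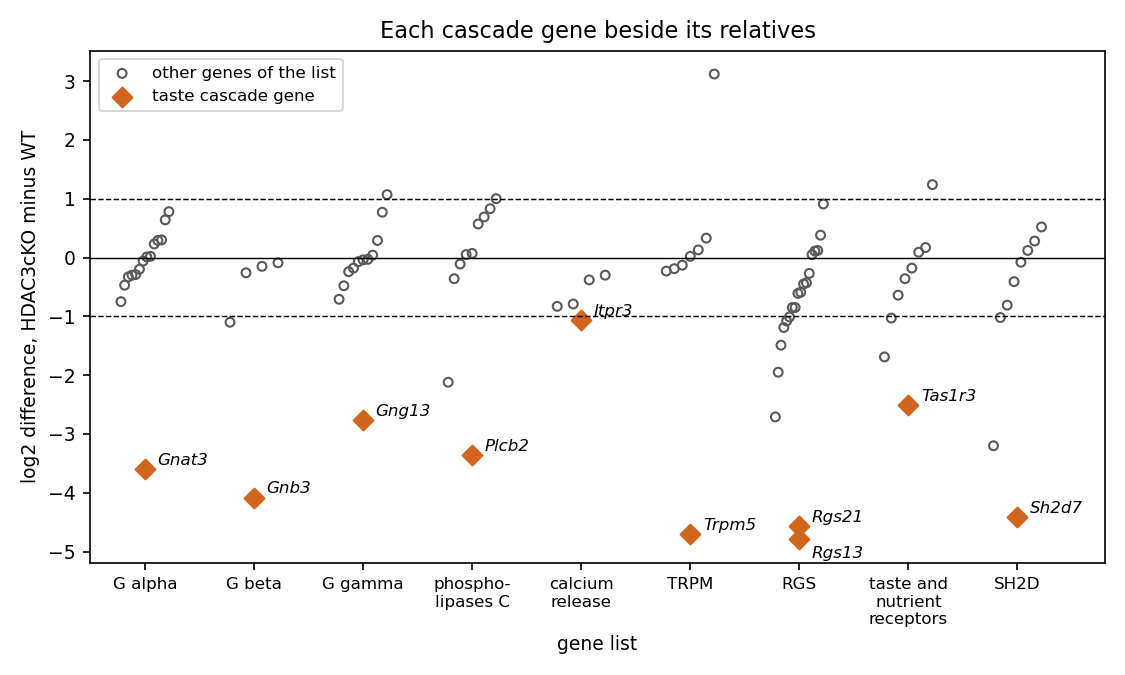
Log2 difference, HDAC3cKO minus WT (vertical axis), of each taste cascade gene (diamonds) beside the other measured genes of its list (open circles), with dashed lines at 2-fold. The cascade gene is the lowest of its column in every list, by a wide gap for Gnat3, Gnb3 and Trpm5 and by a narrow one for Itpr3, whose nearest relative is at -0.83.

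The regulators had some of the largest differences of the array. Rgs13, a small RGS protein known from germinal centre B cells and mast cells as well as tuft cells, had intensities of 4495 and 162. Its difference of -4.79, or 27.7-fold, was the lowest of all named genes, and 3.61% of the WT intensity remained. Rgs21, an RGS protein of taste cells, had intensities of 1840 and 78, 23.6-fold lower (-4.56), with 4.24% remaining. Sh2d7, an SH2 domain protein of tuft cells, had intensities of 1943 and 91, 21.3-fold lower (-4.41), with 4.69% remaining. On the array labelled HDAC3cKO, Rgs21 and Sh2d7 were at log2 intensities of 6.29 and 6.51, below the median named gene. The deposited table has no detection calls, so whether either transcript was present there is not known and the fold can understate the difference.

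Other RGS genes were more often lower than higher. Of 18 measured, 6 passed 2-fold downward, against 5.88% of all named genes, and none upward. The median difference of the 18 was -0.60. Rgs22 was 6.52-fold lower (9.09 and 6.38), Rgs18, a regulator of platelets and other blood cells, 3.85-fold lower (7.49 and 5.54) and Rgs17 2.81-fold lower (7.32 and 5.83), all with a mean below the median named gene. Rgs2, a regulator of Gq signalling with a mean above that median, was 2.28-fold lower (11.71 and 10.52). Of 8 SH2D adaptors beside Sh2d7, Sh2d6, which is also found in tuft cells, was 9.17-fold lower (11.30 and 8.10) and Sh2d1b1, an adaptor of natural killer cells, 2.03-fold lower from a low level of 6.81. The median of the 8 was -0.25.

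**Figure D3:**
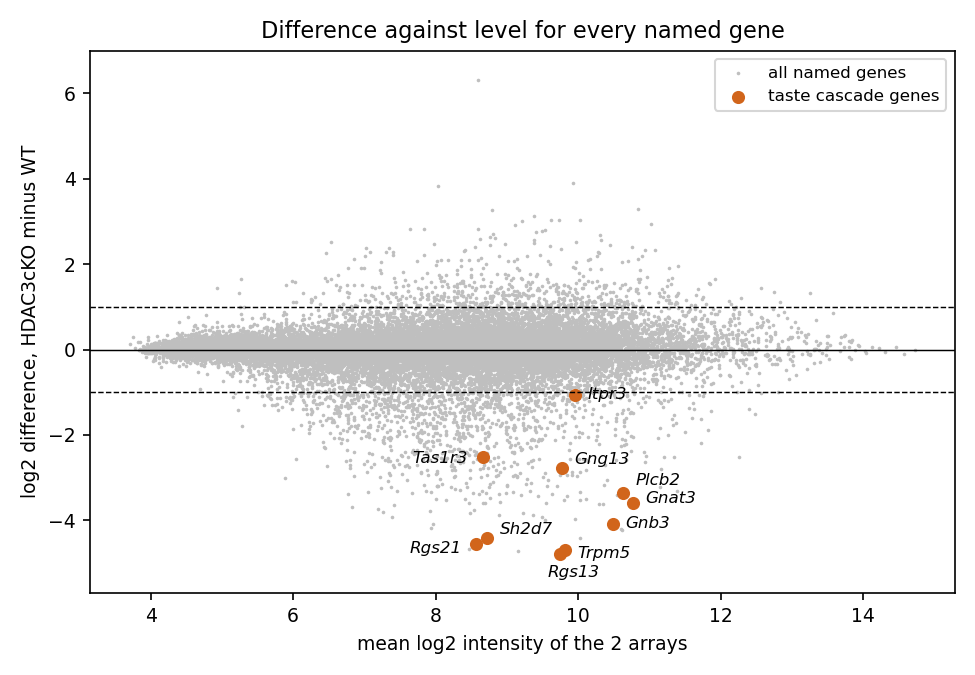
Log2 difference, HDAC3cKO minus WT (vertical axis), against the mean log2 intensity of the 2 arrays (horizontal axis) for all 19937 named genes (grey) and the 10 taste cascade genes (large points), with dashed lines at 2-fold. Rgs13 has the lowest difference of all genes at -4.79, and Itpr3 lies just past the 2-fold line at -1.06.

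Type II taste cells, which house the cascade, also need channels for firing and transmitter release. The list for these cells had 9 measured genes, for such channels or for enzymes of cyclic nucleotide signalling. Of the 9, 3 passed 2-fold downward and none upward (median -0.43). Scn2a, a voltage-gated sodium channel, was 7.93-fold lower (9.75 and 6.77), Kcnq1, a potassium channel, 3.66-fold lower (10.21 and 8.34) and Scn3a, another sodium channel, 2.41-fold lower (6.96 and 5.69). The value of Scn2a is that of 1 of its 14 probe sets, the one with the highest mean. Calhm1, a subunit of the ATP release channel of taste cells, was at 7.09 and 6.64 and differed by -0.46. Of 12 genes of type I and type III taste cells, the glia-like and the sour-sensing cells of the taste bud, 3 passed 2-fold downward and 1 upward (median -0.24). The lower ones were the SNARE gene Snap25 at 4.34-fold, the adhesion gene Ncam1 at 3.85-fold and Ddc, an enzyme of serotonin synthesis, at 2.01-fold, and the higher one was the carbonic anhydrase Car4 at 2.20-fold. Over these 2 taste cell lists and the 9 lists of relatives, 104 genes were measured. Of the 104, 18 passed 2-fold downward and 5 upward, against 5.88% and 2.97% of all named genes. A difference below that of Tas1r3 (-2.51) was found for 3 of the 104. With 64 added to both intensities, 10 passed downward and 3 upward. The downward count was 14 under median centring and 16 under quantile normalization or loess, with 5 upward in each.

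Tuft cell genes outside the cascade were compared as the list closest to it. Of 19 measured, 16 passed 2-fold downward, against 5.88% of all named genes, and none upward. The median of the 19 was -2.62 against -3.84 for the cascade. Pou2f3 had intensities of 3721 and 329, 11.3-fold apart (-3.50). Avil, which encodes advillin, was 15.1-fold lower, the kinase gene Bmx 13.5-fold and Alox5ap, which activates leukotriene synthesis, 12.3-fold. Both lists share their 2 arrays with each other, so their likeness is not independent evidence of a common change.

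The 10 genes most alike in pattern were taken as those nearest to the median cascade gene (log2 intensities of 11.64 and 7.92) by Euclidean distance, among 359 genes outside the cascade with a difference of -2 or less. Likeness here rests on 2 values per gene. They were Krt10, a keratin of suprabasal epidermis, at a distance of 0.14, Syt1, a calcium sensor of vesicle release, at 0.21, Gm94 and Alox5, the leukotriene-forming lipoxygenase, both at 0.31, and Ano7, of the anoctamin family, at 0.34. Dclk1, a kinase that marks tuft cells, followed at 0.37, Sh2d6 at 0.39, Klk7, an epidermal protease, at 0.41, and Avil and Clca3a2 at 0.44. Of these 10, 3 belong to the list of tuft cell genes, and Krt10 and Klk7 are genes of cornifying epidermis. The shares of such genes among all 359 were not counted, so nothing is read from these numbers. Sh2d6, also found in tuft cells, was listed with the SH2D adaptors and is not among the 3.

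Genes beside the cascade genes on their chromosomes mostly did not share the difference. The nearest 2 named protein-coding genes on each side gave 37 different genes outside the cascade, with a median difference of -0.07 and a range from -2.44 to 1.24. They are nearest in order along the chromosome, and their gaps to the cascade gene ran from overlap to 2739 kb (Phtf2, beside Gnat3). Of these, 30 differed by less than 2-fold, 5 passed it downward and 2 upward, against 5.88% and 2.97% of all named genes. The lower Kcnq1, Rgs2 and Rgs18 and the higher Cd36 were also counted in the lists above, so these counts are not separate from those. Around Gnb3, whose own difference was -4.08, Usp5 and Cdca3 on one side differed by -0.21 and 0.52, and P3h3 and Gpr162 on the other by 0.15 and -0.64. The genes around Plcb2, Gng13 and Itpr3 differed by between -0.56 (Sox8) and 0.27 (Bak1). Around Gnat3, Sema3c differed by 0.86, Gnai1 by -0.06 and Phtf2 by -0.03, and Cd36 was the gene 2.37-fold higher. Around Tas1r3, Mxra8 differed by 0.77, Cptp by -0.96 and Ints11 by -0.20. Chtf18 and Dvl1 overlap Gng13 and Tas1r3 in the RefSeq table, and signal of overlapping genes can be hard to separate on an array. They differed by 0.22 and -0.24.

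Trpm5, Sh2d7 and the RGS genes had neighbours that were also lower. Beside Trpm5, Kcnq1 was 3.66-fold lower and Cdkn1c, a cell cycle inhibitor gene of the same imprinted region, 4.76-fold lower (10.54 and 8.29), whereas on the other side Tssc4 differed by 0.59 and Cd81, a tetraspanin, was 2.17-fold higher (12.28 and 13.40). Beside Sh2d7, Dmxl2, which acts in acidification of vesicles, was 5.41-fold lower (9.87 and 7.43), while Idh3a on the other side differed by -0.52. Rgs13 and Rgs21 lie in 1 cluster on chromosome 1 with Rgs1 between them. Rgs1, an RGS gene of activated lymphocytes, differed by -0.85 (9.06 and 8.21), and the flanking Rgs2 and Rgs18 by -1.19 and -1.95. All 5 RGS genes of this stretch were thus below 0, with the 2 cascade members far below the rest.

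**Figure D4:**
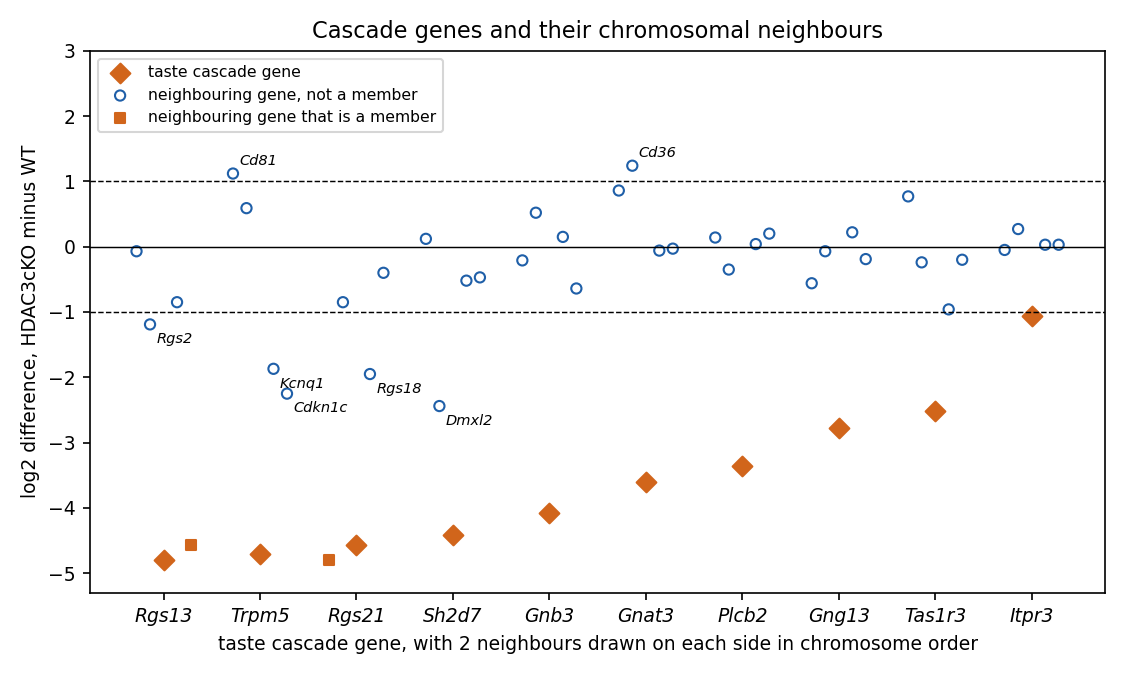
Log2 difference, HDAC3cKO minus WT (vertical axis), of each taste cascade gene (diamonds) with its nearest 2 named protein-coding genes on each side in chromosome order (open circles, or squares where the neighbour is itself a cascade gene), with dashed lines at 2-fold. Of the 37 neighbours outside the cascade, 30 lie between the dashed lines, and the neighbours that do not are labelled.

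Rgs13, Plcb2 and Itpr3 are also expressed by blood cells, so markers of those cells were set beside them. Of 9 B cell markers, 2 passed 2-fold downward, Fcer2a at 4.07-fold and Cd79b at 3.40-fold. The B cell median was -0.32, and the summed intensity was 2769 and 1686. The B cell genes Cd79a (6.69 and 6.25) and Ms4a1 (5.98 and 5.65) were below the median named gene on both arrays, as were Pax5, Blk and Fcrla. Cd79b (9.8 and 8.04) and Bcl6 (9.27 and 8.87) were above it on both arrays. Fcer2a (8.98 and 6.95) was above it only on the array labelled WT, and Cr2 (7.95 and 8.55) only on that labelled HDAC3cKO. Of 10 mast cell markers, 2 passed 2-fold downward, the receptor gene Kit by -2.10 and Hdc, the histamine-forming enzyme, by -1.58 (log2). Kit (10.41 and 8.31) and Hdc (9.88 and 8.30) were above the median named gene on both arrays. The mast cell median was 0.04, and the summed intensities were 2674 and 1031. The mast cell protease gene Cpa3 was at 4.81 and 5.81 (log2), below the median named gene on both arrays and not lower on the array labelled HDAC3cKO. No probe set of the table is at 0, so an absent transcript cannot be told from a low one. The median of the 7 cascade genes other than Rgs13, Plcb2 and Itpr3 was -4.08.

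Macrophage and dendritic cell markers moved the same way as Plcb2 but less. All 15 were at or below 0, of which 5 passed 2-fold downward, and the list had a median of -0.78 and summed intensities of 18111 and 8141. The lowest were Laptm5, a lysosomal protein of blood cells, at 4.24-fold, the dendritic cell receptor Xcr1 at 3.87-fold and Mpeg1 at 3.30-fold, and Csf1r, the receptor that defines macrophages, differed by -0.89. Of 6 granulocyte markers 3 passed 2-fold downward, S100a8 by -1.64, Ly6g by -1.19 and S100a9 by -1.02 (median -0.58, summed intensities 829 and 502). Of 7 thymocyte markers 1 did, the coreceptor gene Cd4 by -1.26 (median -0.78, summed intensities 3059 and 1932). Endothelial markers went the other way, with 5 of 7 past 2-fold upward, a median of 1.06 and summed intensities of 5837 and 12818. They were led by the sialomucin gene Emcn at 2.20, the VEGF receptor gene Kdr at 1.34 and the adhesion gene Pecam1 at 1.08. Fibroblast markers had 1 of 6 past 2-fold upward, the decorin gene Dcn at 1.45, a median of 0.38 and summed intensities of 5647 and 12808. The 16 thymic epithelial markers had summed intensities of 64230 and 61788. The brightest of them on both arrays were Krt8 (13574 and 15960) and the class II gene Cd74 (11966 and 10908), so the sum leans on a few genes. The summed intensity of the 10 cascade genes was 34601 and 3046. The part of these other cells in the cascade differences was not tested.

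**Figure D5:**
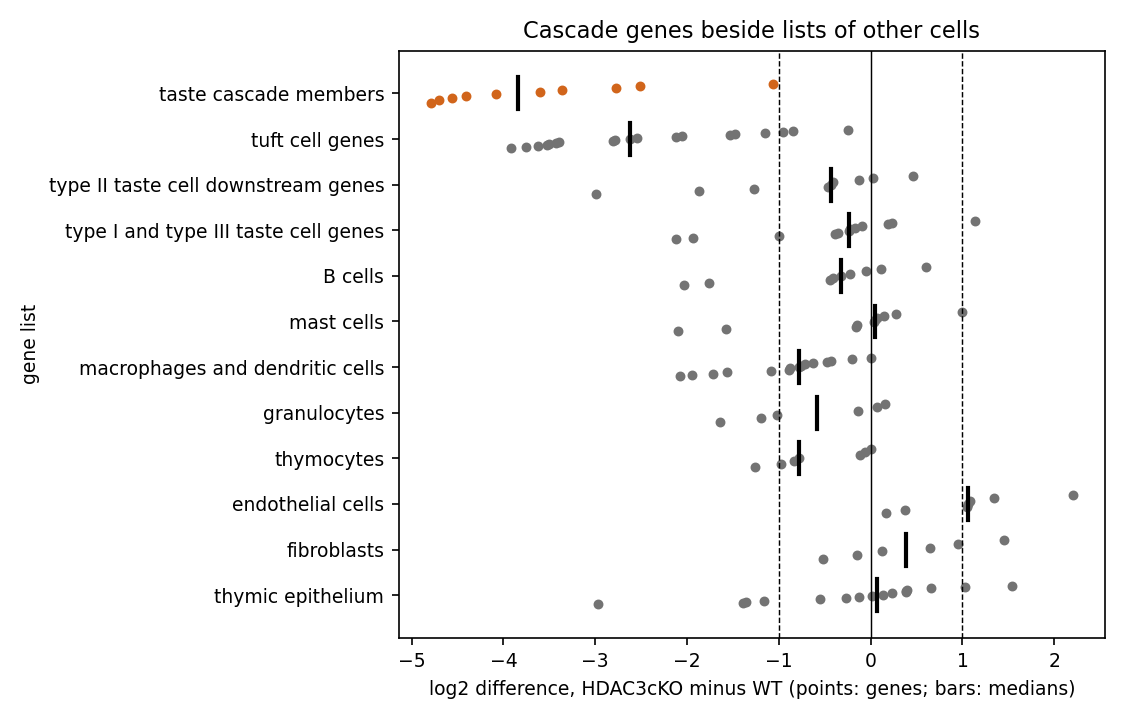
Log2 difference, HDAC3cKO minus WT (horizontal axis), for every measured gene (points) of the taste cascade and 11 other lists (vertical axis), with the median of each list as a bar and dashed lines at 2-fold. The cascade has the lowest median at -3.84, followed by tuft cell genes at -2.62, while the endothelial median is 1.06.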

How the data were processed

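Sorted mTEC were profiled with 1 array (Affymetrix Mouse Gene ST) for each genotype. The authors deposited linear intensities, 1 for each probe set, with medians of 183 (WT) and 177 (HDAC3cKO), made with RMA per the submitters' processing notes; the sources used here state no version, setting or genome build for it. Intensities were taken to log2 here with no pseudocount and no further scaling. Of 34760 probe sets, 21640 had 1 symbol in the platform annotation, which can be old, 1321 had several and 11799 were unnamed here; 21553 of the first matched RefSeq by Entrez identifier. The probe set with the highest mean served for each of 19937 genes. Genes were counted at 2-fold. The members and lists were chosen with earlier results of these data known. Of 219 listed genes, 209 were measured. Named were the 10 members, up to 3 genes each way past 2-fold in each list, the nearest 2 neighbours on each side (those within 2-fold partly as ranges), the 10 genes most alike and a fixed set that includes Hdac3; any other is marked or serves as a marker or range end, chosen after values were seen. Alternatives were median centring, quantile normalization, loess (span 0.3), the mean or lowest probe set, 64 added to both intensities, thresholds of 1.5-fold and 4-fold, and leaving out blood-expressed members. Counts and scalings were tested on simulated data. Python 3.11.15, numpy 2.4.6, pandas 2.3.3 and statsmodels 0.14.6 were used.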

Additional observations from a re-analysis of the deposited data

How the results depend on the processing

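Each cascade gene has 1 probe set, so the mean and lowest probe set rules leave its value as it is and test nothing, and median centring moves all genes alike. Under quantile normalization, loess and 64 added to both intensities, all 10 cascade genes kept their direction. The median cascade difference ran from -3.91 (loess) to -3.57 (64 added to both intensities), and was -4.08 without Rgs13, Plcb2 and Itpr3. The count of genes at least 2-fold lower was 10 under median centring, quantile normalization and loess, and 10 and 9 genes passed 1.5-fold and 4-fold. The filter on the mean level left all 10 and tests little, since 5 of them passed it through the array labelled WT. The other 5 were at or above the median named gene on both arrays. With 64 added to both intensities, which shrinks the differences of dim probe sets, the count was 9, since Itpr3 was at -0.99, and Rgs21 and Sh2d7 were at -3.74 and -3.69. The same addition gave 10 genes at least 2-fold lower and 3 higher in the lists of relatives and taste cell genes, in place of 18 and 5. The lower count of these lists was 14 under median centring and 16 under quantile normalization and under loess. The higher count stayed at 5 under each of these scalings. The lower count thus depends on the scaling. The medians of the other 20 lists stayed on their side of 2-fold, and 4 of 120 values changed sign, all of them within 0.1 of 0: those of the alpha and gamma subunits under median centring, of TRPM channels under quantile normalization and of thymic epithelium under loess. No paired analysis was possible because each genotype had 1 array, and no array could be left out. Background signal, which the table does not give, limits every low level.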
